A study of Saccharomyces cerevisiae with 12 samples.

Results

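The comparison set 3 yeast cultures described as over-expressing a truncated copper transporter against 3 of the parent strain described as over-expressing the full-length transporter. The 6 arrays were chosen by their sample titles, from 12 single-colour expression arrays in the series. In the Dctr1_CTR1D300 group (here CTR1D300), the ctr1 deletion strain BY4741 delta-ctr1 carried CTR1 delta-300, a form of Ctr1 shortened at its cytosolic C-terminus. In the WT_CTR1 group, BY4741, called wild type by the submitters, carried full-length CTR1 in addition to its own chromosomal copy. Strain and construct therefore differed together, and their parts in a difference cannot be told apart in this contrast. The other 6 arrays were of the same strains with empty vectors, WT_Con and Dctr1_Con with 3 cultures each, and served as background. All cultures were pre-grown in synthetic complete medium without leucine, started at an OD600 of 0.6 and kept at 30 °C for 7 h in the presence of 0.02 mM CuCl2, so the controls had also received copper. The labels describe 3 independent experiments, and give neither the promoter and copy number of the constructs nor the number of clones tested.

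Ctr1 is the high-affinity copper transporter of the yeast plasma membrane and moves copper that surface reductases such as Fre1 have reduced. Its cytosolic tail takes part in shutting down uptake when copper is in excess. When copper is scarce, the factor Mac1 switches on CTR1, CTR3 and FRE genes. When copper is plentiful, the factor Ace1 (gene CUP2) switches on the metallothioneins, which bind the metal. Copper also reaches iron metabolism, because the iron oxidase Fet3 carries copper ions, and excess copper is known to damage iron-sulfur clusters.

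Levels below are log2 processed signals relative to the array's 75th percentile, and differences are log2 CTR1D300 minus WT_CTR1 with the SE of the limma fit (n = 3 arrays per group). A gene was called when its adjusted p from limma was under 0.05. Array pairs had a Pearson r across genes of 0.992 to 0.998 in WT_CTR1 and 0.994 to 0.998 in CTR1D300, against 0.949 to 0.968 between them. The median processed signal was 1792 to 2999 over the 12 arrays, 96.5% to 98.9% of probes were well above background, and no spot was saturated. WT_CTR1 replicate 2 stood apart from the other WT_CTR1 arrays. Over the 780 genes called with at least a 2-fold difference, it was the WT_CTR1 array nearest the CTR1D300 mean for 588 (75.4%). CTR1D300 replicate 1 was the array of its group nearest the WT_CTR1 mean for 437 (56.0%).

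The CTR1 probe checked the labels of the strain and of the full-length construct. CTR1 was at 4.76, 4.56 and 4.53 in WT_CTR1 replicates 1 to 3 and at -8.60, -9.33 and -9.13 in CTR1D300. The probe was not well above background on any CTR1D300 or Dctr1_Con array. Whether it misses the truncated construct or the construct was low cannot be told from this signal. The CTR1 level there is only a bound. CTR1 was at least 12550-fold lower in CTR1D300 than in WT_CTR1 by that bound. The deletion and the added full-length copy set this difference in advance, so it is given without a p value. The open reading frame YPR123C, which overlaps CTR1, did give a signal in CTR1D300. In WT_CTR1 the YPR123C levels were -0.99, -1.38 and -1.19, and in CTR1D300 they were -4.73, -5.31 and -4.50. Its mean was -9.83 in Dctr1_Con and -3.36 in WT_Con, so all 3 CTR1D300 arrays lay above the deletion strain with the vector and below both wild-type groups. As a separate frame, YPR123C does not measure the level of the construct. Over-expression of the truncated form could not be checked with these probes.

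LEU2 serves leucine synthesis and is deleted from the chromosome of BY4741. It separated the over-expressing groups by more than any gene other than CTR1. The level of LEU2 was 4.49, 4.14 and 4.42 in WT_CTR1 and -0.80, -1.43 and -0.14 in CTR1D300. Both vector groups were higher, at means of 5.86 in WT_Con and 5.59 in Dctr1_Con, and the CTR1D300 arrays lay far below the other 9. The difference was -5.14 ± 0.26, adjusted p = 5e-08. As LEU2 was read in a medium without leucine, it is given beside the amino acid genes below, and its part in them was not tested. HIS3, URA3 and MET17, auxotrophic marker genes of BY4741, did not pass the filter on dim probes.

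**Figure D1:**
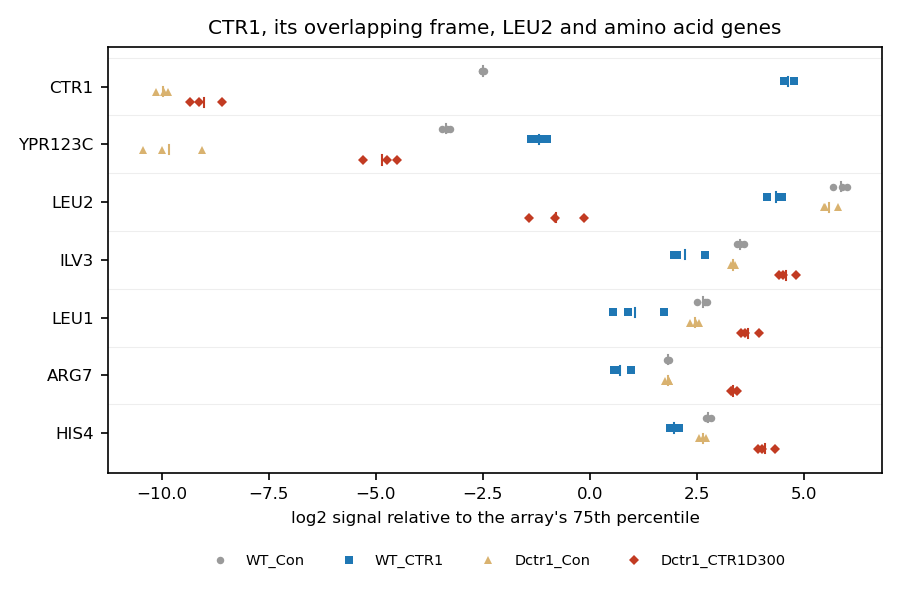
Log2 signal relative to the array's 75th percentile (x axis) for CTR1, the overlapping frame YPR123C, LEU2 and 4 amino acid synthesis genes (y axis), 1 point per array and a bar at each group mean of 3 arrays. The CTR1 points of both deletion-strain groups are not well above background. LEU2 was lower in CTR1D300 while ILV3, LEU1, ARG7 and HIS4 were higher there than in the other 3 groups.

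Of 6127 genes tested, 3851 (62.9%) were called, 1499 higher (24.5%) and 2352 lower (38.4%) in CTR1D300. The median difference over all genes was -0.11, with an interquartile range of -0.45 to 0.23, and the share of called genes that were higher depended on the scaling. It was 38.9% here, 48.0% with median centring, 50.5% with quantile normalisation and 49.6% in the authors' series matrix values. Differences of at least 2-fold were called for 780 genes (12.7%), 300 higher (4.9%) and 480 lower (7.83%). The 3 arrays of one group did not overlap with those of the other for 3969 genes (64.8%). At least 4-fold differences numbered 64 higher and 98 lower, and 8-fold differences 12 and 23. With so many genes called, a call alone says little about a gene list, and every list count below is to be read against these shares. The lists were described with counts and medians and were not tested as sets.

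**Figure D2:**
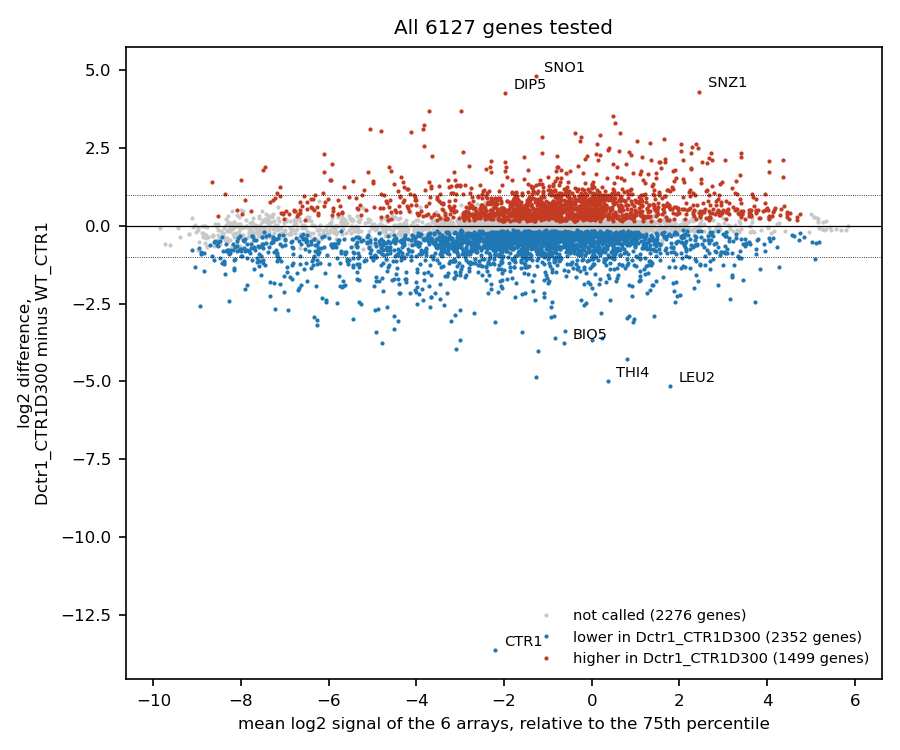
Log2 difference CTR1D300 minus WT_CTR1 (y axis) against the mean log2 signal of the 6 arrays relative to the 75th percentile (x axis), 1 point per gene, coloured by whether the gene was called higher, called lower or not called. Dotted lines mark 2-fold. CTR1 lies alone at the bottom, and called genes lie at all signal levels.

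Among the genes with the largest rises, several serve amino acid and vitamin supply. SNO1 levels were -4.45, -2.44 and -4.18 in WT_CTR1, against 1.35, 1.10 and 0.96 in CTR1D300. Its partner SNZ1, which with Sno1 makes pyridoxal phosphate (vitamin B6), gave the same order. SNZ1 was at -0.33, 1.36 and -0.13 in WT_CTR1 replicates 1 to 3 and at 4.85, 4.55 and 4.44 in CTR1D300. In both genes WT_CTR1 replicate 2 was higher than the other WT_CTR1 arrays but still far below all CTR1D300 arrays. In WT_CTR1 the DIP5 levels were -4.52, -3.44 and -4.39, and in CTR1D300 they were 0.02, 0.17 and 0.28. DIP5 encodes the permease for aspartate and glutamate. The differences were 4.82 ± 0.40, adjusted p = 2.17e-06 for SNO1, 4.31 ± 0.35, adjusted p = 1.73e-06 for SNZ1 and 4.28 ± 0.23, adjusted p = 1.02e-07 for DIP5. Next came SRL4 (3.70 ± 0.24), YJL213W (3.69 ± 0.14), ARO5 (3.52 ± 0.21), the alcohol dehydrogenase gene ADH5 (3.31 ± 0.18), the presumed transporter gene YHK8 (3.25 ± 0.21), YGL024W (3.12 ± 0.17) and YGR035C (3.11 ± 0.31), with adjusted p values from 9.92e-09 to 9.25e-06.

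The largest falls after CTR1 and LEU2 began with THI4, which makes the thiazole of thiamine. The level of THI4 was 2.96, 2.49 and 3.12 in WT_CTR1 and -1.76, -2.30 and -2.33 in CTR1D300. Vector levels of THI4 were higher still, 3.13 in WT_Con and 4.57 in Dctr1_Con, so the 3 CTR1D300 arrays were the low ones. The difference was -4.99 ± 0.18, adjusted p = 8.94e-09. GND2, a 6-phosphogluconate dehydrogenase gene, (-4.29 ± 0.19), SHH3 (-3.97 ± 0.25), the formate dehydrogenase gene FDH1 (-3.77 ± 0.16), the biotin precursor transporter gene BIO5 (-3.75 ± 0.18) and the hydrophilin gene GRE1 (-3.68 ± 0.18) were also among the 10 largest falls. YOR387C levels were 0.95, 1.32 and 1.16 in WT_CTR1, against -6.02, -2.72 and -2.38 in CTR1D300. VEL1 was at 0.74, 0.81 and 0.79 in WT_CTR1 replicates 1 to 3 and at -4.99, -2.53 and -2.16 in CTR1D300. In both genes CTR1D300 replicate 1 was far below the other CTR1D300 arrays, although no array crossed to the other group. Their differences were -4.85 ± 0.72, adjusted p = 0.000174 for YOR387C and -4.01 ± 0.56, adjusted p = 0.000106 for VEL1. These genes are close copies and may share probe signal, so each is uncertain as a single gene.

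**Figure D3:**
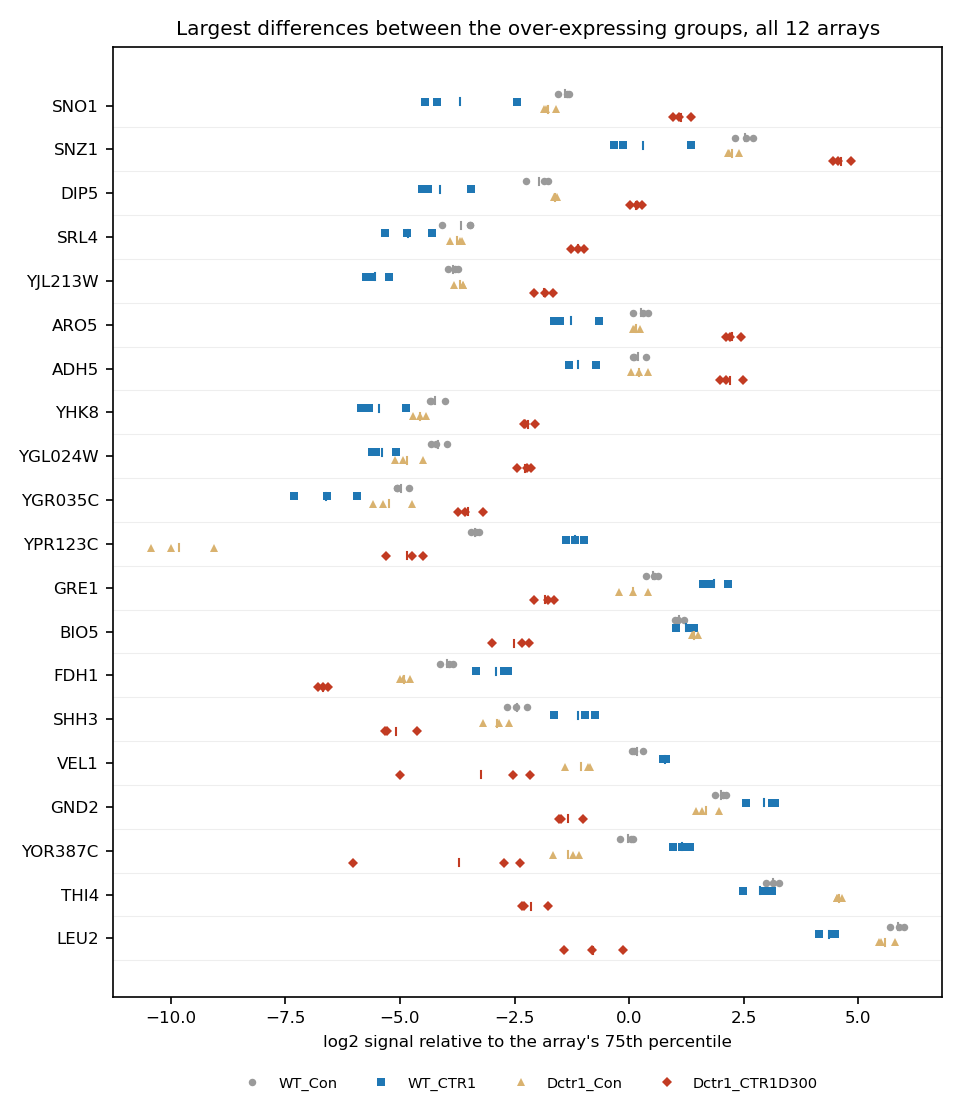
Log2 signal relative to the array's 75th percentile (x axis) of the genes with the largest rises and falls (y axis), 1 point per array and a bar at each group mean of 3 arrays. WT_CTR1 and CTR1D300 do not overlap in any of them. For SNO1 the vector groups lie between, at -1.41 and -1.76.

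Among copper uptake genes, targets of Mac1, the transporter genes and the reductase genes differed little apart from CTR1 itself. CTR3 encodes a second high-affinity copper transporter. In WT_CTR1 the CTR3 levels were -4.01, -4.18 and -3.97, and in CTR1D300 they were -4.50, -4.48 and -4.55. Its groups did not overlap and its difference was -0.46 ± 0.08, adjusted p = 0.000769, but with quantile normalisation the call was lost (-0.13, adjusted p = 0.162). The level of FRE1 was -2.82, -2.61 and -2.61 in WT_CTR1 and -2.99, -2.57 and -2.66 in CTR1D300. The reductase genes FRE1 (-0.06 ± 0.15, adjusted p = 0.755) and FRE7 (-0.15 ± 0.12, adjusted p = 0.281) were not called. The groups of FRE1 overlapped. Without CTR1D300 replicate 1, FRE7 was called lower (-0.31, adjusted p = 0.00571), as it was without slide 1 (-0.35, adjusted p = 0.0113). The remaining members rose. IRC7 encodes an enzyme that splits cysteine-type sulfur compounds. IRC7 levels were -1.28, -1.04 and -1.31 in WT_CTR1, against 1.02, 0.79 and 0.95 in CTR1D300. Its difference was 2.13 ± 0.09, adjusted p = 2.66e-08, and that of REE1, a gene linked to enolase regulation, was 1.02 ± 0.10, adjusted p = 8.47e-06. In all, 2 of 6 members were higher and 2 lower, with a median of -0.10 that was 0.13 with quantile normalisation. The lower members were CTR3 and CTR1 itself. The fall of CTR1 was set in advance by the deletion and the added copy, yet it enters these counts and medians. The series matrix values hold only 4 of the 6 genes and gave a median of 0.57, so genes and scaling both differ there. Over all 6 genes the median was -0.16 without WT_CTR1 replicate 1 and -0.06 without WT_CTR1 replicate 3.

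Of 5 copper detoxification genes, 3 were lower in CTR1D300 and none higher (median -0.51, and -0.33 on slide 1). They were SOD1 and the metallothionein genes CUP1-1 and CUP1-2, which are known targets of Ace1. The CUP1 copies were among the brightest probes on every array and cannot be told apart by their near-identical sequence, so their calls count as 1 reading. CUP1-1 was at 5.50, 5.41 and 5.29 in WT_CTR1 replicates 1 to 3 and at 5.16, 4.75 and 4.62 in CTR1D300. The difference was -0.55 ± 0.14, adjusted p = 0.00471 for CUP1-1 and -0.51 ± 0.14, adjusted p = 0.00727 for CUP1-2. In WT_CTR1 the SOD1 levels were 5.43, 5.17 and 5.22, and in CTR1D300 they were 5.03, 4.64 and 4.60. SOD1 encodes the copper-zinc superoxide dismutase, and its difference was -0.52 ± 0.13, adjusted p = 0.00605. In these genes CTR1D300 replicate 1 was nearest to WT_CTR1, and the groups did not overlap. The second metallothionein gene CRS5 (-0.11 ± 0.08, adjusted p = 0.263) and the Ace1 gene CUP2 (-0.33 ± 0.13, adjusted p = 0.0512) were not called, and CUP2 was called lower in 9 of the 19 alternative settings.

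Of 11 copper delivery genes 9 were lower and 1 higher (median -0.41). CCC2, the copper pump that loads Fet3 in the secretory pathway, was the lowest of them. The level of CCC2 was 0.27, 0.10 and 0.38 in WT_CTR1 and -1.08, -0.93 and -0.94 in CTR1D300. Its difference was -1.23 ± 0.08, adjusted p = 3.85e-07. CCS1 levels were 0.55, 0.40 and 0.37 in WT_CTR1, against 1.20, 1.06 and 1.07 in CTR1D300. CCS1, the chaperone that loads copper into Sod1, was the member that rose (0.67 ± 0.07, adjusted p = 1.88e-05). The vacuolar transporter gene CTR2 (-0.55 ± 0.10) and the cytochrome oxidase assembly gene SCO1 (-0.61 ± 0.17) fell.

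Iron genes moved in both directions. TIS11 (CTH2), which in iron deficiency directs the decay of messages of iron-using proteins, was far lower in CTR1D300. TIS11 was at 1.13, 0.57 and 1.19 in WT_CTR1 replicates 1 to 3 and at -2.81, -2.61 and -2.50 in CTR1D300. The vector groups lay between, at 0.09 in WT_Con and 0.13 in Dctr1_Con. The difference was -3.60 ± 0.17, adjusted p = 3.3e-08. The biotin transporter gene VHT1 (-1.74 ± 0.13) was lower as well. The scaffold genes ISU1 and ISU2, which were higher, belong to the Aft target list too and are given with cluster assembly below. Among siderophore genes the cell wall mannoprotein gene FIT2 (-2.27 ± 0.26) and the transporter genes ARN1 (-1.77 ± 0.13) and ARN2 (-0.68 ± 0.13) were lower and ENB1 was higher (1.35 ± 0.10). In all, 11 of 23 iron uptake and Aft target genes were lower and 8 higher (median -0.16, and -0.09 without WT_CTR1 replicate 3), and 4 of 7 siderophore genes were lower and 1 higher (median -0.46, -0.73 without WT_CTR1 replicate 2 and -0.30 without WT_CTR1 replicate 3).

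Of 26 iron-sulfur cluster assembly genes 18 were higher and 1 lower (median 0.32). DRE2, which passes electrons to the cytosolic assembly machinery, gave tight groups. In WT_CTR1 the DRE2 levels were -1.33, -1.11 and -1.36, and in CTR1D300 they were 0.67, 0.63 and 0.67. Its difference was 1.92 ± 0.07, adjusted p = 1.34e-08. The level of ISU2 was -2.83, -2.98 and -2.95 in WT_CTR1 and -0.99, -1.02 and -1.03 in CTR1D300. The scaffold genes ISU2 (1.91 ± 0.08) and ISU1 (1.40 ± 0.13) and the cytosolic assembly genes CFD1 (1.84 ± 0.14) and NAR1 (1.58 ± 0.12) were higher. At least a 2-fold difference was called for 9 of the 26 genes, all higher. The vector groups of ISU2 were at -2.70 and -2.76, close to WT_CTR1, whereas those of DRE2, at -0.72 and -0.70, lay between the over-expressing groups.

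Zinc-responsive genes were lower, 10 of 12 with none higher (median -0.95). Zap1 is the factor that senses zinc and switches these genes on in deficiency, its own gene included. ZAP1 levels were -0.02, -0.07 and -0.19 in WT_CTR1, against -2.16, -1.72 and -1.74 in CTR1D300. ADH4 was at 2.30, 2.33 and 2.26 in WT_CTR1 replicates 1 to 3 and at -1.48, -0.19 and -0.15 in CTR1D300. The CTR1D300 arrays were the low ones, and replicate 1 was the lowest of them in ZAP1, in ADH4, an alcohol dehydrogenase gene, and in the zinc transporter gene ZRT3. The differences were -1.78 ± 0.11, adjusted p = 3.08e-07 for ZAP1, -2.90 ± 0.27, adjusted p = 5.66e-06 for ADH4, -1.77 ± 0.14, adjusted p = 1.44e-06 for ZRT3 and -1.73 ± 0.25, adjusted p = 0.000129 for ZPS1. On slide 1 the list median was -1.09. With empty vectors the list median of Dctr1_Con minus WT_Con was -0.31, against -0.03 for all genes, with 0 of the 12 genes called. The strain difference with the constructs minus that with the vectors was called for 7 of the 12. For ZPS1 the vector groups differed in the same direction (4.32 in WT_Con, 3.23 in Dctr1_Con), and its strain difference with the constructs minus that with the vectors was not called (-0.65, adjusted p = 0.15).

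Phosphate genes had no common direction, with 5 of 21 higher and 10 lower (median -0.20, -0.11 without CTR1D300 replicate 3 and -0.07 on slide 1). The sodium-phosphate transporter gene PHO89 was higher. In WT_CTR1 the PHO89 levels were -5.57, -4.41 and -5.35, and in CTR1D300 they were -2.37, -2.35 and -2.88. Its difference was 2.57 ± 0.31, adjusted p = 3.92e-05, and SPL2, which acts on low-affinity phosphate uptake, followed (1.73 ± 0.39). The glycerophosphoinositol transporter gene GIT1 (-1.63 ± 0.09) and PHM8 (-1.48 ± 0.33) were lower.

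Genes of amino acid synthesis were higher in CTR1D300. In yeast, amino acid starvation raises most of these pathways together through the factor Gcn4, and leucine synthesis answers in addition to Leu3. All 12 measured branched-chain genes were higher, with a median of 2.07, and 2.24 without WT_CTR1 replicate 2. LEU1 encodes the isomerase of leucine synthesis. The level of LEU1 was 0.55, 1.75 and 0.88 in WT_CTR1 and 3.95, 3.63 and 3.52 in CTR1D300. OAC1 levels were -0.20, 0.34 and -0.15 in WT_CTR1, against 2.64, 2.70 and 2.65 in CTR1D300. In LEU1 and in OAC1, which carries the leucine precursor out of mitochondria, WT_CTR1 replicate 2 was the highest of its group and the groups did not overlap. The differences were 2.66 ± 0.13, adjusted p = 3.95e-08 for OAC1 and 2.64 ± 0.24, adjusted p = 4.72e-06 for LEU1. LEU9, an isopropylmalate synthase gene (2.39 ± 0.17), and ILV3, a dehydratase gene shared by the branched-chain pathways (2.35 ± 0.17), followed.

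LEU2, which the branched-chain list leaves out, went the opposite way on slide 1 (-5.29) and in replicates 2 and 3 (-5.07). The vector groups of LEU1, at 2.65 and 2.46, lay between the over-expressing groups. Over the branched-chain list the median of WT_CTR1 minus WT_Con was -0.87 and that of CTR1D300 minus Dctr1_Con was 1.19.

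Arginine synthesis gave the same order, with 9 of 9 tested genes higher (median 1.85). ARG7 encodes the ornithine acetyltransferase of the pathway. ARG7 was at 0.57, 0.95 and 0.62 in WT_CTR1 replicates 1 to 3 and at 3.44, 3.29 and 3.32 in CTR1D300. Its difference was 2.64 ± 0.09, adjusted p = 8.94e-09. The mitochondrial ornithine carrier gene ORT1 (2.31 ± 0.07) and ARG1 (2.08 ± 0.16) were higher too. Of 6 histidine genes 6 were higher (median 1.60), with HIS4 at 2.12 ± 0.10, HIS5 at 2.04 ± 0.11, HIS7 at 1.78 ± 0.12 and HIS1 at 1.43 ± 0.13. Of 14 aromatic genes 13 were higher and none lower (median 1.33). ARO3 and ARO4 encode the enzymes that start the shikimate pathway. In WT_CTR1 the ARO3 levels were 0.86, 0.91 and 0.74, and in CTR1D300 they were 3.43, 3.05 and 3.27. The difference was 2.41 ± 0.09, adjusted p = 9.92e-09 for ARO3 and 2.21 ± 0.09, adjusted p = 1.35e-08 for ARO4, followed by TRP4 (1.98 ± 0.07) and ARO2 (1.82 ± 0.09).

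Sulfur and methionine genes were higher in 21 of 27 cases and lower in 2 (median 1.36, and 1.10 on slide 1). The level of SUL1 was -6.60, -5.50 and -6.90 in WT_CTR1 and -4.14, -2.73 and -2.99 in CTR1D300. SUL1, a sulfate permease gene, was dim, varied by more than 1 log2 unit within each group and still did not overlap (3.05 ± 0.49, adjusted p = 0.000309). MET13 levels were -2.14, -2.31 and -2.48 in WT_CTR1, against 0.01, -0.07 and 0.11 in CTR1D300. The folate enzyme gene MET13 (2.33 ± 0.08, adjusted p = 9.41e-09), STR2 of the cysteine branch (2.23 ± 0.10) and HOM3, which starts threonine and methionine synthesis (2.06 ± 0.06), were tighter. Of 10 threonine, serine and glycine genes 7 were higher and 1 lower (median 0.56, and 0.71 without WT_CTR1 replicate 2), led by the serine synthesis gene SER1 (1.44 ± 0.09), the threonine aldolase gene GLY1 (1.28 ± 0.09), THR4 (1.16 ± 0.10) and THR1 (1.05 ± 0.09).

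Not all nitrogen pathways followed. In lysine synthesis 2 of 10 genes were higher and 2 lower (median -0.08, and -0.26 without WT_CTR1 replicate 3). LYS9, the saccharopine reductase gene, went against the other amino acid genes. LYS9 was at 4.48, 4.31 and 4.23 in WT_CTR1 replicates 1 to 3 and at 2.04, 1.85 and 2.04 in CTR1D300. Its CTR1D300 arrays were all lower (-2.36 ± 0.09, adjusted p = 9.25e-09), as were those of LYS12 (-0.67 ± 0.13), while LYS5 was higher (1.28 ± 0.13) and LYS14 was at 0.29 ± 0.09. The lysine median turned to 0.12 with 4 higher and 2 lower without WT_CTR1 replicate 2, and without WT_CTR1 replicate 3 or CTR1D300 replicate 1 only 1 gene was higher. LYS14 lost its call without WT_CTR1 replicate 3 (0.21, adjusted p = 0.0885) or CTR1D300 replicate 1 (0.24, adjusted p = 0.0683). In glutamate and glutamine supply 4 of 10 genes were higher and 5 lower (median -0.13). That median was -0.04, -0.27 and -0.07 without WT_CTR1 replicates 1, 2 and 3, and -0.19 and -0.08 without CTR1D300 replicates 1 and 2. The mitochondrial isocitrate dehydrogenase gene IDP1 (1.50 ± 0.06) and the glutamate synthase gene GLT1 (1.16 ± 0.09) were higher, and GDH3 (-1.25 ± 0.15) and the ammonium permease gene MEP2 (-1.17 ± 0.11) were lower.

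Amino acid permease genes were higher in 9 of 20 cases and lower in 4 (median 0.29). Besides DIP5, the branched-chain permease gene BAP2 was higher. In WT_CTR1 the BAP2 levels were -0.40, -0.10 and -0.22, and in CTR1D300 they were 2.11, 1.89 and 2.09. Its difference was 2.27 ± 0.11, adjusted p = 4.73e-08. The level of PUT4 was -0.34, -1.29 and -0.39 in WT_CTR1 and -3.52, -3.90 and -3.84 in CTR1D300. PUT4, the proline permease gene (-3.08 ± 0.23, adjusted p = 1.11e-06), and ALP1, an arginine transporter gene (-1.72 ± 0.10), were lower. In purine synthesis 8 of 15 tested genes were higher and 2 lower (median 0.43), with ADE8 at 1.71 ± 0.12, ADE12 at 1.01 ± 0.06, GUA1 at 0.99 ± 0.16 and ADE4 at 0.95 ± 0.15.

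Vitamin genes divided the B6 family. SNZ1 and SNO1 were among the largest rises, as given above, whereas the close copies SNZ2 and SNZ3 and their partners SNO2 and SNO3, which serve thiamine synthesis, were lower, so 2 of 6 members were higher and 4 lower (median -0.91). SNZ3 levels were 1.29, 1.12 and 1.15 in WT_CTR1, against -0.18, -0.10 and -0.29 in CTR1D300. The differences were -1.38 ± 0.07, adjusted p = 7.78e-08 for SNZ3 and -1.37 ± 0.07, adjusted p = 5.08e-08 for SNZ2, which may share probe signal. Of 20 thiamine genes 17 were lower and 1 higher (median -1.32). The thiamine regulator gene THI2 gave separate groups. THI2 was at -1.07, -1.64 and -1.15 in WT_CTR1 replicates 1 to 3 and at -3.73, -3.25 and -3.35 in CTR1D300. Its difference was -2.16 ± 0.15, adjusted p = 6.1e-07. THI73 (-2.18 ± 0.32) and THI20, a hydroxymethylpyrimidine phosphate kinase gene (-1.90 ± 0.15), were lower too. In the vector groups these genes stood in the opposite order, with a median of 0.81 for Dctr1_Con minus WT_Con, and by list median Dctr1_Con was the highest of the 4 groups and CTR1D300 the lowest.

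All 6 biotin genes were lower in CTR1D300 (median -2.93). BIO3 and BIO4 act in the middle of the pathway and BIO2 makes biotin in its last step, with the help of an iron-sulfur cluster. In WT_CTR1 the BIO3 levels were 2.32, 2.29 and 2.28, and in CTR1D300 they were -0.79, -0.55 and -0.66. The level of BIO2 was 2.57, 2.43 and 2.42 in WT_CTR1 and -0.97, -0.34 and -0.25 in CTR1D300. The CTR1D300 arrays were the low ones among all 12, since both vector groups of BIO3 and BIO2 were at 2.60 to 2.66. The differences were -2.97 ± 0.07, adjusted p = 4.33e-10 for BIO3, -2.99 ± 0.15, adjusted p = 5.39e-08 for BIO2, -2.90 ± 0.14, adjusted p = 3.33e-08 for BIO4 and -3.75 ± 0.18, adjusted p = 3.75e-08 for BIO5. The biotin median of Dctr1_Con minus WT_Con was 0.13.

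**Figure D4:**
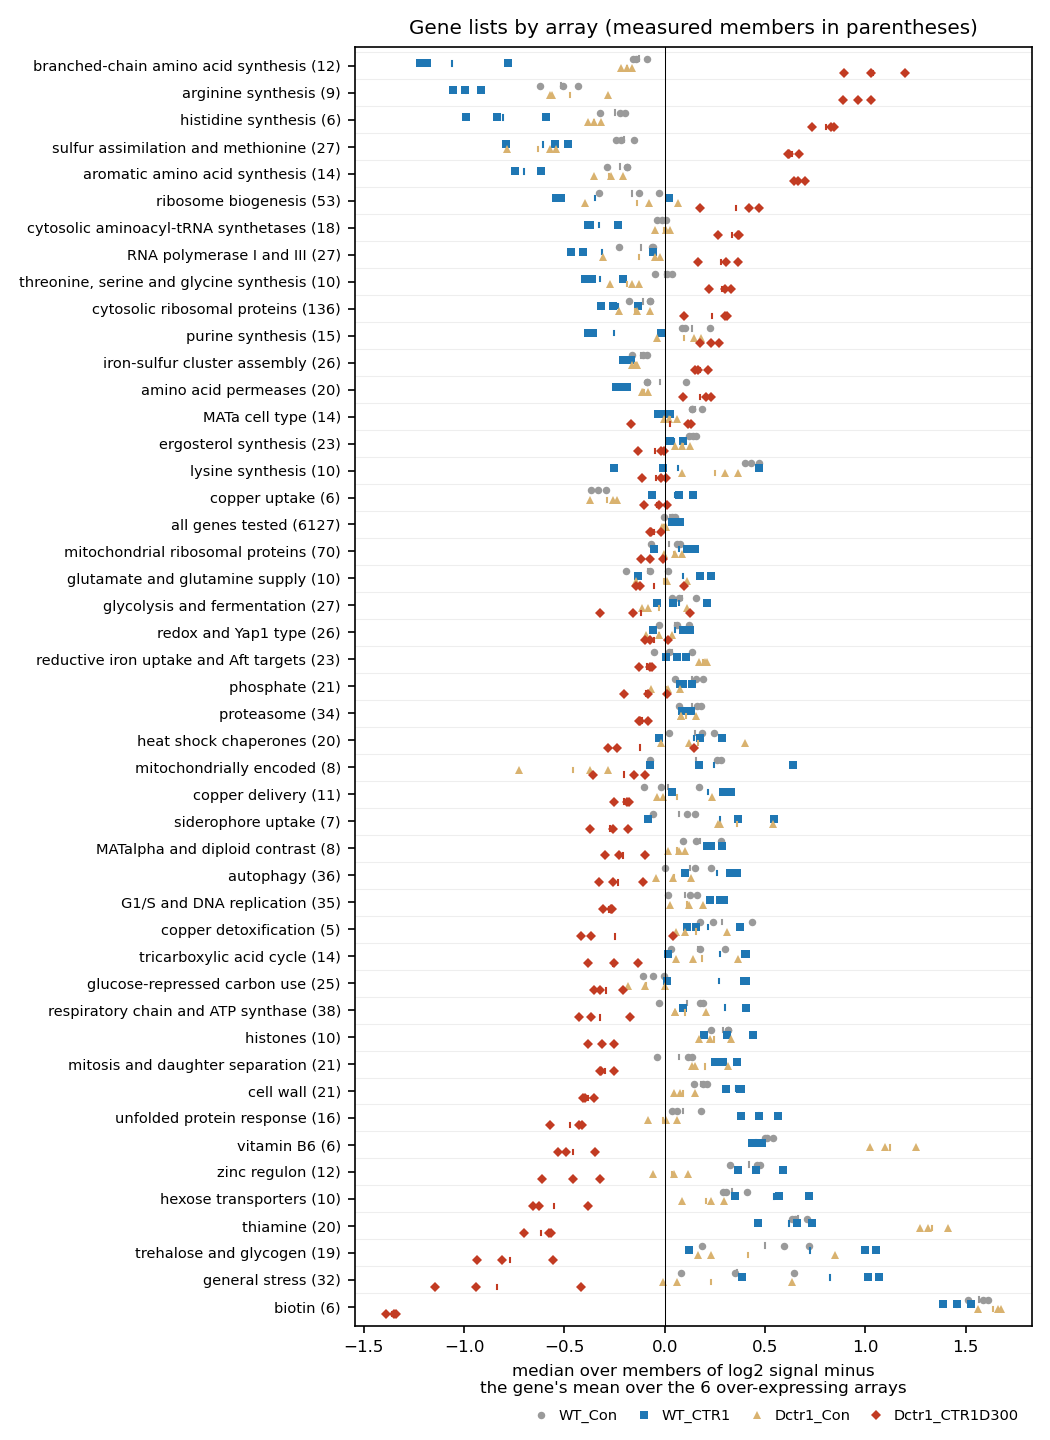
For each gene list (y axis, measured members in parentheses), the median over members of the log2 signal minus the gene's mean over the 6 over-expressing arrays (x axis), 1 point per array and a bar at each group mean of 3 arrays. Most amino acid lists and the cytosolic translation lists lie to the right in CTR1D300, and biotin, general stress, storage carbohydrate and thiamine lists to the left. In lysine synthesis, glutamate and glutamine supply and mitochondrial ribosomal proteins the WT_CTR1 and CTR1D300 arrays overlap. WT_CTR1 replicate 2 lies nearer the CTR1D300 arrays in ribosome biogenesis, at 0.02, and in general stress, at 0.38.

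Genes of the translation machinery were higher. Of 136 measured cytosolic ribosomal protein genes 113 were higher and 1 lower (median 0.46). The differences were small, and only RPS9A reached 2-fold. RPS9A levels were -0.15, -0.08 and -0.11 in WT_CTR1, against 1.38, 1.49 and 1.44 in CTR1D300. Its difference was 1.55 ± 0.07, adjusted p = 2.48e-08, and RPS18B (1.00 ± 0.09), RPS14B (0.83 ± 0.11) and RPL11B (0.82 ± 0.10) followed. Many of these genes have a near-identical partner, and the partners may share signal. Of 18 tRNA synthetase genes 16 were higher and none lower (median 0.68), with DED81 at 1.06 ± 0.07, KRS1 at 1.02 ± 0.09, MES1 at 1.02 ± 0.10 and HTS1 at 1.00 ± 0.09.

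Of 53 ribosome biogenesis genes 50 were higher and none lower (median 0.72), and of 27 RNA polymerase I and III genes 20 were higher and none lower (median 0.60). RRP12 was at -0.04, 1.11 and -0.14 in WT_CTR1 replicates 1 to 3 and at 1.40, 1.55 and 1.56 in CTR1D300. In WT_CTR1 the RPA135 levels were -1.14, -0.19 and -0.95, and in CTR1D300 they were 0.19, 0.42 and 0.55. In both genes WT_CTR1 replicate 2 was higher than the other WT_CTR1 arrays by about 1 log2 unit and lay next to the vector means (0.75 and 0.84 for RRP12). RRP12 serves the export of ribosomal subunits and RPA135 encodes a large subunit of RNA polymerase I. The differences were 1.19 ± 0.31, adjusted p = 0.0059 for RRP12 and 1.15 ± 0.24, adjusted p = 0.00155 for RPA135, followed by the processome genes UTP10 (1.13 ± 0.30) and UTP23 (1.12 ± 0.24), NOP7 (1.10 ± 0.29) and the polymerase I genes RPA14 (1.01 ± 0.08), RPA34 (0.92 ± 0.21) and RPA49 (0.92 ± 0.20). Over the biogenesis list the per-array medians, each relative to the genes' means over the 6 arrays, were -0.54, 0.02 and -0.52 in WT_CTR1 and 0.18, 0.47 and 0.42 in CTR1D300. Without WT_CTR1 replicate 2 the list median was 0.90 and 51 of 53 genes were higher. The interaction with the vectors was not called for RRP12 (1.09, adjusted p = 0.0592) or UTP10 (0.92, adjusted p = 0.0992).

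Mitochondrial ribosomal protein genes had a median of -0.11, with 20 of 70 measured genes lower and 2 higher. Without WT_CTR1 replicate 2 it was -0.19, against -0.12 for all genes. MRP8 (-0.90 ± 0.21), MRP2 (-0.69 ± 0.10) and MRPL39 (-0.52 ± 0.12) were lower and RSM22 was higher (0.78 ± 0.07). Without slide 1 the lower genes numbered 11.

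General stress genes, typical targets of Msn2 and Msn4, were lower in 30 of 32 cases with none higher (median -1.73), and 27 were lower by at least 2-fold. The level of HSP26 was 5.16, 4.60 and 5.06 in WT_CTR1 and 3.14, 2.10 and 2.28 in CTR1D300. HSP26 encodes a small heat shock protein and stayed among the brighter genes in both groups (-2.43 ± 0.27, adjusted p = 1.96e-05). ALD3 levels were 2.70, 2.17 and 2.53 in WT_CTR1, against -0.37, -0.80 and -0.66 in CTR1D300. The aldehyde dehydrogenase gene ALD3 (-3.07 ± 0.16, adjusted p = 6.72e-08) and UIP4 (-2.47 ± 0.36) were lower, as was GRE1. The per-array medians of the list were 1.07, 0.38 and 1.02 in WT_CTR1 and -0.41, -1.15 and -0.94 in CTR1D300. WT_CTR1 replicate 2 was thus the lowest of its group and CTR1D300 replicate 1 the highest of its own, and the groups did not overlap. Without WT_CTR1 replicate 2 the median was -1.88.

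Storage carbohydrate genes were lower in 19 of 19 cases (median -1.54, and -1.80 without WT_CTR1 replicate 2). GAC1 encodes a regulatory subunit that directs phosphatase to glycogen synthase. GAC1 was at -2.71, -4.02 and -2.90 in WT_CTR1 replicates 1 to 3 and at -6.01, -7.05 and -6.84 in CTR1D300. In WT_CTR1 the GLC3 levels were 0.80, -0.44 and 0.80, and in CTR1D300 they were -2.02, -2.44 and -2.21. GLC3, the glycogen branching enzyme gene, showed the same pattern with WT_CTR1 replicate 2 lowest in its group. The differences were -3.42 ± 0.48, adjusted p = 0.000122 for GAC1 and -2.62 ± 0.33, adjusted p = 5.28e-05 for GLC3, followed by PGM2 (-2.39 ± 0.31) and GSY1, a glycogen synthase gene (-2.37 ± 0.44). Among heat shock chaperone genes 8 of 20 were lower and 3 higher (median -0.23), a lower share near the 38.4% over all genes. The per-array list medians of the 2 groups overlapped. The chaperone genes SSA4 (-1.31 ± 0.29), HSP82 (-1.29 ± 0.28), SSA1 (-1.26 ± 0.19) and SSA3 (-1.10 ± 0.14) were lower, and the list median was -0.03 on slide 1. It was -0.15 without WT_CTR1 replicate 1, -0.39 without CTR1D300 replicate 1 and -0.14 without CTR1D300 replicate 3.

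Energy genes were mostly lower. In the respiratory chain and ATP synthase 31 of 38 nuclear genes were lower and 1 higher (median -0.63). The level of ATP3 was 3.42, 3.09 and 3.39 in WT_CTR1 and 2.34, 2.13 and 2.23 in CTR1D300. ATP3, a subunit of the ATP synthase (-1.06 ± 0.10, adjusted p = 7.05e-06), ATP16 (-1.06 ± 0.12) and the NADH dehydrogenase genes NDE2 (-1.57 ± 0.19) and NDI1 (-1.24 ± 0.27) were lower. In the citrate cycle 9 of 14 genes were lower and 1 higher (median -0.56), with CIT1 at -1.37 ± 0.28, KGD2 at -1.30 ± 0.09, MDH1 at -0.97 ± 0.19 and SDH1 at -0.82 ± 0.20. The mitochondrially encoded genes did not behave alike on the slides. Their median was -0.38 over all arrays, 0.02 on slide 1 and -0.65 in replicates 2 and 3, and 4 of 8 were lower with none higher. COX3, a cytochrome oxidase subunit, was the clearest. COX3 levels were -2.66, -2.48 and -2.43 in WT_CTR1, against -3.83, -4.09 and -4.18 in CTR1D300. It differed by -1.51 ± 0.10, adjusted p = 3.08e-07, but Dctr1_Con was as low (-4.15) as CTR1D300. COX1 was lower too (-0.70 ± 0.16), and COB (-0.65 ± 0.22, adjusted p = 0.024) lost its call without any of WT_CTR1 replicate 2 (-0.46, adjusted p = 0.0896), WT_CTR1 replicate 3 (-0.62, adjusted p = 0.0648) or CTR1D300 replicate 3 (-0.62, adjusted p = 0.0653). With slide as a fixed block COB was at -0.30 (adjusted p = 0.193), the list median was -0.23, and 1 of the 8 genes was higher and 2 lower. Without each of the 3 arrays named, 2 of the 8 genes were called lower, and 1 was called higher without WT_CTR1 replicate 2 (list median -0.22).

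Sugar genes were mixed. Of 25 glucose-repressed genes 15 were lower and 2 higher (median -0.58). POT1 of fatty acid breakdown (-2.87 ± 0.21), the activator gene CAT8 (-2.27 ± 0.21) and the alcohol dehydrogenase gene ADH2 (-2.14 ± 0.10) were lower. YAT2 was at -0.92, -0.64 and -0.94 in WT_CTR1 replicates 1 to 3 and at 1.52, 1.65 and 1.61 in CTR1D300. YAT2, a carnitine acetyltransferase gene, was higher (2.42 ± 0.10, adjusted p = 1.34e-08). In the series matrix values, which hold 15 of these genes, 5 were higher and 5 lower. Of 27 glycolysis and fermentation genes 12 were lower and 6 higher (median -0.14), with ADH5 the largest rise and GLK1 (-1.98 ± 0.33), HXK1 (-1.81 ± 0.44) and GPD1 (-1.66 ± 0.24) among the lower genes. The median was -0.07 without WT_CTR1 replicate 1, -0.30 without CTR1D300 replicate 1, -0.04 without CTR1D300 replicate 3 and -0.03 with slide as a fixed block.

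Hexose transporter genes were lower in 6 of 10 cases and higher in 2 (median -1.11). HXT5 is a transporter gene of slow-growing cells. In WT_CTR1 the HXT5 levels were 0.86, 0.01 and 0.74, and in CTR1D300 they were -2.30, -2.54 and -2.33. The level of HXT4 was -0.04, 0.17 and 0.07 in WT_CTR1 and -1.87, -2.58 and -2.24 in CTR1D300. The CTR1D300 arrays were below all other arrays in both. The differences were -2.93 ± 0.19, adjusted p = 3.51e-07 for HXT5, -2.98 ± 0.14, adjusted p = 3.93e-08 for HXT10, -2.29 ± 0.29, adjusted p = 4.74e-05 for HXT4 and -2.08 ± 0.31, adjusted p = 0.000174 for HXT6, whose probe may also read its near-identical neighbour HXT7. For HXT4 the vector groups differed in the opposite direction, at -0.14 in WT_Con and 1.08 in Dctr1_Con.

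Unfolded protein response genes were lower in 14 of 16 cases and higher in 2 (median -0.90). KAR2, the chaperone of the endoplasmic reticulum, gave tight groups. KAR2 levels were 3.42, 3.40 and 3.38 in WT_CTR1, against 1.98, 1.91 and 2.11 in CTR1D300. Its difference was -1.40 ± 0.06, adjusted p = 3.06e-08. The disulfide isomerase gene MPD1 (-1.38 ± 0.08), the nucleotide exchange factor gene SIL1 (-1.32 ± 0.08) and the inositol synthesis gene INO1 (-1.93 ± 0.19) were lower. Among redox genes 12 of 26 were lower and 5 higher (median -0.16, and -0.24 without CTR1D300 replicate 1). OYE3 was at -2.55, -2.62 and -2.51 in WT_CTR1 replicates 1 to 3 and at 0.59, 0.03 and 0.27 in CTR1D300. The old yellow enzyme gene OYE3 (2.86 ± 0.13, adjusted p = 3.06e-08) and ATR1, a drug and borate exporter gene (2.84 ± 0.18, adjusted p = 3.42e-07), were far higher, while the peroxiredoxin gene TSA2 (-1.47 ± 0.16) and the glutaredoxin gene GRX2 (-1.37 ± 0.15) were lower.

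Cell wall genes were lower in 15 of 21 measured cases with none higher (median -0.74). In WT_CTR1 the PIR3 levels were 0.64, 0.41 and 0.69, and in CTR1D300 they were -1.74, -2.77 and -2.43. PIR3 (-2.89 ± 0.21, adjusted p = 9.48e-07), the abundant wall protein genes SED1 (-1.66 ± 0.09) and CWP2 (-1.38 ± 0.09) and PST1 (-1.50 ± 0.10) were lower. Sterol genes had a median of -0.07, which turned to 0.01 with median centring, with 8 of 23 lower and 3 higher. It was -0.01 without CTR1D300 replicate 1 and -0.11 without CTR1D300 replicate 3. ERG8 of the mevalonate pathway (0.98 ± 0.07) and IDI1 (0.56 ± 0.08) were higher, and ERG20 (-0.85 ± 0.06) and ERG3 (-0.58 ± 0.11) were lower.

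Proteasome genes differed little, with 20 of 34 lower and 1 higher (median -0.20, and 13 lower with median centring). RPN6 (-0.72 ± 0.07), RPT6 (-0.59 ± 0.06), RPN10 (-0.56 ± 0.09) and PRE9 (-0.52 ± 0.06) led. Autophagy genes were lower in 24 of 36 measured cases and higher in 2 (median -0.47). The level of ATG8 was -0.52, -0.72 and -0.34 in WT_CTR1 and -1.79, -2.30 and -2.25 in CTR1D300. ATG8, the ubiquitin-like protein of the autophagosome (-1.58 ± 0.15, adjusted p = 7.22e-06), ATG34 (-1.78 ± 0.11), ATG17 (-1.38 ± 0.10) and ATG39 (-1.30 ± 0.28) were lower.

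Most cell cycle genes measured were lower. In bulk cultures, fewer cells at a stage and less RNA per cell cannot be told apart. All 10 histone genes were lower (median -0.67), with the linker histone gene HHO1 at -0.92 ± 0.09, the variant gene HTZ1 at -0.85 ± 0.06, HTA2 at -0.69 ± 0.11 and HTB2 at -0.67 ± 0.08. Of 35 genes of the G1/S transition and DNA replication 25 were lower and 1 higher (median -0.50). CLN1 and PCL1 encode cyclins of G1. CLN1 levels were 0.96, 0.91 and 1.26 in WT_CTR1, against -0.78, -0.52 and -0.64 in CTR1D300. PCL1 was at 1.09, 1.12 and 1.29 in WT_CTR1 replicates 1 to 3 and at -1.15, -0.72 and -1.16 in CTR1D300. The groups did not overlap, and the vector means of CLN1, at 0.84 and 0.70, lay near WT_CTR1. The differences were -1.69 ± 0.13, adjusted p = 1.06e-06 for CLN1 and -2.18 ± 0.16, adjusted p = 7.97e-07 for PCL1, followed by the S phase cyclin gene CLB6 (-1.61 ± 0.25) and the DNA damage gene HUG1 (-2.32 ± 0.22). Of 21 genes of mitosis and daughter separation 19 were lower and none higher (median -0.68), including ASH1 (-1.14 ± 0.11) and SCW11 (-0.94 ± 0.16). DSE2 (-0.85 ± 0.23, adjusted p = 0.00825) lost its call without slide 1 (-0.60, adjusted p = 0.126).

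Mating type genes were read beside the strain label. BY4741 is a haploid of mating type a, and the a-specific genes STE2, STE6, BAR1, ASG7, MFA1 and MFA2 were well above background on all 6 arrays. So were the contrast genes STE3 and NDT80. On each of these arrays 96.55% to 98.9% of all probes were well above background, so this flag cannot check the mating type. Of 14 genes of a cells and pheromone response 4 were higher and 2 lower (median 0.03), and the median was negative on slide 1 (-0.28). Leaving out 1 array gave medians of either sign (-0.05 to 0.15), and the higher genes numbered 2 without CTR1D300 replicate 3 and 2, against 3 lower, with slide as a fixed block. MFA2 (-0.55 ± 0.12) and FAR1 (-0.52 ± 0.08) were lower, FUS3 (0.42 ± 0.08) and STE6 (0.32 ± 0.09) were higher, MFA1 (0.07 ± 0.16), BAR1 (-0.02 ± 0.13) and ASG7 (-0.09 ± 0.11) were not called, and the call of STE2 (0.29 ± 0.09, adjusted p = 0.0196) was lost without WT_CTR1 replicate 3 (0.26, adjusted p = 0.0647), CTR1D300 replicate 2 (0.23, adjusted p = 0.0796) or CTR1D300 replicate 3 (0.23, adjusted p = 0.0778). It was also lost with slide as a fixed block (0.15, adjusted p = 0.277) or a random block (0.23, adjusted p = 0.0576) and in a fit of the 6 arrays alone (0.29, adjusted p = 0.0637). Of 8 contrast genes of alpha cells and meiosis 5 were lower and none higher (median -0.47), against 4 lower and 2 higher with quantile normalisation and 3 lower with normexp background correction. In WT_CTR1 the MF(ALPHA)1 levels were -4.88, -4.74 and -4.44, and in CTR1D300 they were -7.88, -8.10 and -7.59. The alpha pheromone gene MF(ALPHA)1 was dim in all groups and dimmer in CTR1D300 (-3.17 ± 0.14, adjusted p = 2.7e-08), and its partner MF(ALPHA)2 stayed near the floor (0.13 ± 0.10). STE3 (-1.14 ± 0.09), SPO13 (-0.65 ± 0.08), SPO11 (-0.63 ± 0.07) and IME2 (-0.31 ± 0.11) were lower, and MF(ALPHA)2, IME1 (0.09 ± 0.08) and NDT80 (-0.07 ± 0.11) were not called. With quantile normalisation MF(ALPHA)2 (0.46, adjusted p = 0.000793) and IME1 (0.49, adjusted p = 0.000224) were called higher. With slide as a fixed block MF(ALPHA)2 was called higher too (0.33, adjusted p = 0.0481). SPO13 lost its call with normexp background correction (-0.20, adjusted p = 0.134). IME2 lost its call without WT_CTR1 replicate 1 (-0.24, adjusted p = 0.105) or 3 (-0.29, adjusted p = 0.075) and without CTR1D300 replicate 2 (-0.28, adjusted p = 0.0804) or 3 (-0.27, adjusted p = 0.0885), and IME2 was at 0.04 (adjusted p = 0.757) with quantile normalisation. It was called in 7 of the 18 alternative settings that hold it.

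The same strains with empty vectors differed far less. Between Dctr1_Con and WT_Con, 30 genes were called (0.49%), against 525 at an unadjusted p under 0.05. The strain differences with constructs and with vectors correlated across genes (no independent replicates) at r = 0.14 (Spearman's rho = 0.07). The difference between these strain differences was called for 2845 genes (46.4%). By list, it was called for 12 of 12 branched-chain, 7 of 9 arginine, 6 of 6 histidine, 12 of 14 aromatic, 24 of 27 sulfur, 20 of 20 thiamine and 6 of 6 biotin genes. It was also called for 24 of 32 general stress, 33 of 53 ribosome biogenesis, 104 of 136 ribosomal protein and 16 of 21 mitosis genes, and for 0 of 5 copper detoxification genes and 0 of 8 mitochondrially encoded genes. As the 0 counts cover few genes, CUP1-1 at -0.24 (adjusted p = 0.336) and COX3 at -0.32 (adjusted p = 0.0701) show their size.

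The over-expressing groups lay on either side of their vector groups for most genes with a large difference. Of the 300 genes higher by at least 2-fold, 282 were below WT_Con in WT_CTR1 and above Dctr1_Con in CTR1D300, with medians of -0.38 and 1.08. Of the 480 lower genes 431 showed the reverse, with medians of 0.33 and -1.03. Choosing genes by the difference between the over-expressing groups fixes these signs in part, so they are a description and no support for a direction. The larger part of the distance lay on the CTR1D300 side in both sets. The controls lay in slide column 1 and the over-expressing cultures in column 2, and column cannot be told apart from over-expression in these distances.

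In the direct comparison all 6 arrays lay in slide column 2, and only slide 1 held both groups, with replicate 1 of each. Replicates 2 and 3 of WT_CTR1 lay on slide 2 and those of CTR1D300 on slide 3, so there the slide and the contrast cannot be told apart. The slide 1 difference and the difference in replicates 2 and 3 correlated across genes at r = 0.94 (Spearman's rho = 0.90). All 780 genes with a called difference of at least 2-fold had the same sign on slide 1, which is part of the fit, and 635 were at least 2-fold in both portions. The list medians on slide 1 were 2.48 for branched-chain synthesis, 2.02 for arginine, -2.88 for biotin, -1.31 for thiamine, 0.71 for ribosome biogenesis and -1.46 for general stress. With slide 1 left out 3445 genes were called, and with slide as a fixed block 3469.

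**Figure D5:**
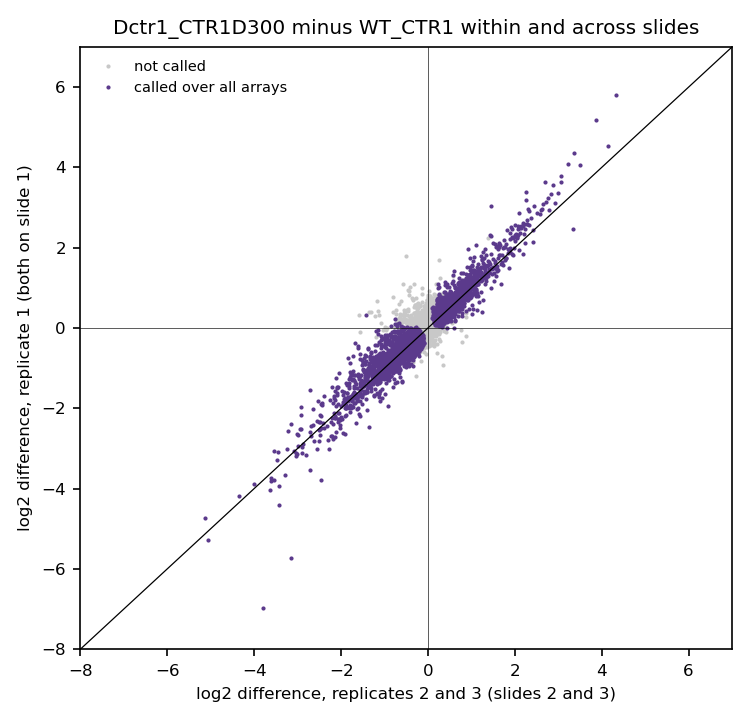
Log2 difference CTR1D300 minus WT_CTR1 on slide 1, from 1 array per group (y axis), against that in replicates 2 and 3 on slides 2 and 3 (x axis), 1 point per gene, called genes in purple and other genes in grey. The line marks equal values, and CTR1, at -13.36 and -13.78, lies outside the axes. Called genes run along the line in both directions, with r = 0.94 over all genes.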

How the data were processed

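Per the file headers, the deposited scanner files are output of Agilent Feature Extraction (10.7.1.1), with array design 016322 annotated on sacCer1. The deposited processed signal is an intensity per spot, background-subtracted by that software and not scaled between arrays, and the deposited median spot signal and local background are raw intensities. Saturation, outliers and spots well above background are marked by deposited flags (other: 0 or 1). The authors' deposited series matrix has log2 values of 5202 probes, 5191 of them gene probes, on columns with a common median of 11.7. Its choice of probes and its scaling are not stated there.

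From the 6256 gene probes (2 spots each), log2 processed signals had their array's 75th percentile subtracted, both spots were averaged, and a gene was read from its brightest probe. The filter kept 6155 probes and removed 101, requiring a signal well above background on at least 3 of 12 arrays, which left 6127 genes. Names came from a RefSeq table (5740 of 6228 genes on the array), and 488 kept their systematic name. As that table's assembly is not the one the array names, no coordinates are given. Means of the 4 groups were fitted to all 12 arrays with limma 3.58.1 in R 4.3.3 (8 residual degrees of freedom), and p values were Benjamini-Hochberg adjusted over all genes. The number of arrays limits the precision. The fit was tested on simulated data.

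The gene lists, the rule for named genes and the comparison itself were chosen with earlier results of these data known. Named were CTR1, YPR123C and strain markers, mating type and meiosis markers, measured copper uptake and detoxification genes, and the 10 largest rises and falls among called genes with no overlap that were well above background on all 6 arrays. Up to 4 called, non-overlapping members of each list with the largest differences were named too, and a few genes that this rule selects are not reported here. Of the listed genes 9 were not tested. Among them ARG5,6 and ADE5,7 were left out because their names were not matched to a systematic name, so their signal was not looked up. The alternatives were other scalings, filters, single spots, blocks, arrays left out and the series matrix values. The normexp alternative used the median spot signal, since the mean signal was not used here.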

Additional observations from a re-analysis of the deposited data

Results flagged for a closer look

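The difference between the strains in over-expressing cultures differed from that in vector cultures for 2845 of 6127 genes (46.4%) by the interaction term of the limma fit. The 20 genes with the largest rises and falls were among them. Interaction values, as the log2 difference with the constructs minus that with the vectors, were 5.18 for SNO1, 4.58 for SNZ1 and 3.93 for DIP5. They were 3.77 for SRL4, 3.54 for YJL213W, 3.64 for ARO5, 3.28 for ADH5, 3.59 for YHK8, 3.81 for YGL024W and 3.37 for YGR035C. Among the falls they were -4.87 for LEU2, -6.43 for THI4, -3.55 for YOR387C, -3.96 for GND2 and -2.79 for VEL1. They were -3.53 for SHH3, -2.83 for FDH1, -4.08 for BIO5 and -3.25 for GRE1. YPR123C had a positive value, 2.81, since the strains differed more with vectors (-6.47) than with constructs (-3.66). The adjusted p values lay between 5.82e-08 for THI4 and 0.0159 for YOR387C. These genes were chosen for their difference between the over-expressing groups, which enters the interaction, and 2012 genes were called without slide 1.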

How the results depend on the processing

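The count of 3851 called genes lay between 3365 and 4399 over the 19 alternatives (3365 to 3900 with 1 array left out), and the 2-fold count of 780 between 599 and 933 (933 without WT_CTR1 replicate 2). Of the 191 to 206 named genes that an alternative held, 0 to 5 changed direction or side of the threshold (5 with quantile normalisation). IME2 turned to 0.036 with quantile normalisation, and STE2 to -0.008 on slide 1 alone. A replicate block called 4399 genes (30 became 99 between the vector groups and 2845 became 3673 for the interaction). Same-numbered arrays deviated together at r of 0.38 and 0.41 in replicates 1 and 2, and -0.03 in replicate 3. Unlike-numbered arrays lay between -0.45 and 0.16. Whether the numbers pair the cultures was left undecided, and the main fit has no replicate block. The following medians of gene lists moved by more than the spread between replicates or changed sign. With quantile normalisation they were 0.13 for copper uptake, -0.004 for reductive iron uptake and Aft targets, -0.58 for vitamin B6, -0.29 for glucose-repressed carbon use, -0.83 for cell wall, -0.44 for G1/S and DNA replication and -0.12 for MATalpha and diploid contrast. In the series matrix values they were 0.57 for copper uptake, -0.001 for reductive iron uptake and Aft targets, -0.59 for vitamin B6, -0.13 for glucose-repressed carbon use, -0.82 for cell wall and -0.44 for G1/S and DNA replication. The copper uptake value there rests on 4 of the 6 genes, so the set of genes differs as well as the scaling. On slide 1 alone they were 0.043 for copper uptake, -0.082 for reductive iron uptake and Aft targets, -0.067 for phosphate, 2.48 for branched-chain amino acid synthesis, 2.02 for arginine synthesis, 1.82 for histidine synthesis, 1.43 for aromatic amino acid synthesis, 1.10 for sulfur assimilation and methionine, -0.84 for cell wall, -0.15 for ergosterol synthesis, -0.24 for proteasome, -0.60 for mitosis and daughter separation, -0.28 for MATa cell type and 0.018 for mitochondrially encoded. With median centring they were -0.082 for reductive iron uptake and Aft targets, 0.40 for iron-sulfur cluster assembly, -2.85 for biotin, 1.41 for aromatic amino acid synthesis, 0.37 for amino acid permeases, -0.66 for cell wall, 0.013 for ergosterol synthesis, -0.12 for proteasome, -0.41 for G1/S and DNA replication and -0.60 for mitosis and daughter separation. With normexp background correction they were -0.092 for reductive iron uptake and Aft targets, -0.71 for vitamin B6, -0.66 for cell wall and -0.16 for MATalpha and diploid contrast. With slide as a fixed block they were -0.068 for reductive iron uptake and Aft targets, -0.25 for proteasome and -0.098 for MATa cell type. Without slide 1 they were -2.81 for biotin and -0.60 for mitosis and daughter separation. With only probes well above background on all 12 arrays, it was -0.67 for cell wall. With slide as a random block they were -0.68 for cell wall and -0.053 for MATa cell type. With the higher-numbered spot alone they were -0.24 for proteasome and -0.003 for MATa cell type. Leaving out 1 over-expressing array at a time gave some medians a range, -0.19 to -0.089 for reductive iron uptake and Aft targets, 0.29 to 0.38 for iron-sulfur cluster assembly, -2.97 to -2.83 for biotin, -0.26 to 0.12 for lysine synthesis, 0.49 to 0.70 for threonine, serine and glycine synthesis, -0.77 to -0.53 for cell wall, -0.25 to -0.20 for proteasome, -0.72 to -0.57 for mitosis and daughter separation and -0.053 to 0.15 for MATa cell type. The medians of copper uptake, lysine synthesis, ergosterol synthesis, the MATa cell type and mitochondrially encoded genes thus changed sign under at least 1 alternative, and the cause was not tested. Shares of promoters with motifs were not run, as no promoter sequences were used here. Signal over background limits CTR1 and 26 other dim genes to bounds.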

Other observations

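Some dim genes fell out of the measurable range in CTR1D300. For 27 of the 6127 genes tested all 3 WT_CTR1 arrays but no CTR1D300 array were well above background, and for 0 genes did the reverse hold. Genes well above background on only some WT_CTR1 arrays are not in this count. The share of probes well above background was lowest on slide 3, at 96.55% to 96.91% in replicates 2 and 3 of CTR1D300 and Dctr1_Con. It was highest in WT_CTR1 replicate 2 (98.9%). The part of slide and strain in the count of 27 was not tested. Of the 27 genes, 15 were at least 2-fold lower by the bound against background. The genes named here were chosen after their values were seen, and a gene at background in CTR1D300 passed the filter only through the other groups, so the folds are a description given without p values. SPS2, known from sporulation, was at least 4.17-fold lower. LDS1 and OSW1, spore wall genes, were at least 2.82-fold and 2.54-fold lower. MEK1, a meiotic kinase gene, was at least 2.79-fold lower, and ANS1 at least 4.07-fold. DAN1, a wall protein gene of anaerobic cells, was at least 2.27-fold lower, and the ferric reductase gene FRE5 at least 1.87-fold.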
